A study of Homo sapiens with 6 samples.

Results

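The NF-kB pathway was examined through 10 genes in MOLP-8 (a long-used cell line from a human myeloma, a cancer of plasma cells), of 57861 genes with a usable value in every library. The genes were chosen by name: the 5 subunits RELA, NFKB1, REL, NFKB2 and RELB, the inhibitors NFKBIA and NFKBIE, and the regulators TNFAIP3, BIRC3 and TRAF3. Control cells (3 libraries) carried the lentiCRISPRv2 vector with a scrambled guide, and LIN28B KO cells (3 libraries) the same vector with a guide against LIN28B. Both groups were kept in RPMI medium with serum, and puromycin at 1 ug/mL was used for selection, so that the controls had also been transduced. Transcripts were measured by RNA sequencing and deposited as FPKM, a fragment number scaled to transcript length and library size. The labels do not tell whether libraries of one group were grown or transduced separately, nor whether the cells were clonal. The p-values therefore reflect the spread among these 6 libraries alone, and that spread may be technical.

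NF-kB is a family of dimeric transcription factors held inactive in the cytoplasm. In the canonical arm the IKK kinases mark the inhibitor IkBα (NFKBIA) for destruction and release dimers of RELA or REL with the p50 product of NFKB1. In the noncanonical arm the kinase NIK (MAP3K14) drives processing of NFKB2 to p52, which pairs with RELB, and TRAF3 with the BIRC2 and BIRC3 ligases keeps NIK low. Several of these genes are themselves NF-kB targets and form feedback loops, and mutations in TRAF3, BIRC2, BIRC3, CYLD, NFKB1 and NFKB2 are a known feature of myeloma.

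Several of the genes carry NF-kB motifs in their promoters. The NF-kB binding consensus, the kappa B decamer, was searched on both strands in the 250 bases before each transcript start in the RefSeq table (GRCh38.p14). It was found for 7 of the 8 genes with an entry there, namely NFKB1, NFKB2, REL, NFKBIA, TNFAIP3, BIRC3 and TRAF3, and not for RELA. A match was present in 6.28% of all genes listed there, and in 5.21% of all 35116 promoters. A match is a stretch of letters and not a measured binding site. The 200 bases before the start are shown for NFKBIA, TNFAIP3 and BIRC3, NF-kB targets whose transcripts are commonly read as a sign of NF-kB activity, with the matches in capitals.
NFKBIA (chr14:35404750-35404949, minus strand): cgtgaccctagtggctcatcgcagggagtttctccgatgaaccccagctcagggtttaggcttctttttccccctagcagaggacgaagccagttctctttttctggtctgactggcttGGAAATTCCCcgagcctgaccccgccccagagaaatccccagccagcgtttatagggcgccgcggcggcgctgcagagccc
TNFAIP3 (chr6:137867059-137867258, plus strand): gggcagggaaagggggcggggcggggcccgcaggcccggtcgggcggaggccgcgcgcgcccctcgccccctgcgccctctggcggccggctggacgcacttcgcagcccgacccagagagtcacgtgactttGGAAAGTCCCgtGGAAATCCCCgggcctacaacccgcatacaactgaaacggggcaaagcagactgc
BIRC3 (chr11:102317284-102317483, plus strand): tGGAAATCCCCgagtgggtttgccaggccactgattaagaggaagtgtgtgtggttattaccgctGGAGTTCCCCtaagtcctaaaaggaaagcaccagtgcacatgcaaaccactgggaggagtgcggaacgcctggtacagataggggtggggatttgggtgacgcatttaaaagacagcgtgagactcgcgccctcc
NFKBIA had 1 match, beginning 81 bases before the start. TNFAIP3 had 2 close together, at 67 and 55 bases, and BIRC3 had 2 farther away, at 199 and 135 bases.

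LIN28B blocks the maturation of let-7 microRNAs, so let-7 seed matches in the 3′ UTRs of the NF-kB genes were also looked up. The seed of let-7a-5p (bases 2 to 8, in capitals in the RefSeq sequence below) is shared by 11 mature miRNA names, and its match CTACCTC was searched on the transcript strand of the longest 3′ UTR of each gene in GENCODE 29. Only REL and TNFAIP3 held it among the 10 genes. Of all 19133 genes with a 3′ UTR, 9.71% did, and the share was higher for long UTRs, at 39.6% for UTRs within 1.25 times the 9075 bases of REL and 15.7% for those near the 3156 bases of TNFAIP3. The matches are shown in capitals with their place counted from the first base after the stop codon.
let-7a-5p: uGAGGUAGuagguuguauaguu
REL 3′ UTR, base 1428: gcctagactccctgtcCTACCTCaggtacc
REL 3′ UTR, base 3400: cagaattaaggttctgCTACCTCtgtgtgt
TNFAIP3 3′ UTR, base 3016: aatgcctctgagtgtcCTACCTCcttggag

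The targeted gene separated the groups. LIN28B (chr6:105404923-105531207 in GRCh37) had 23.3, 24.3 and 25.5 FPKM in control libraries 1 to 3 against 8.41, 8.17 and 5.84 FPKM in LIN28B KO libraries 1 to 3. It fell by 1.66 on the log2 scale (SE 0.17, limma adjusted p = 0.0207). With 1 control library, or with LIN28B KO library 1 or 2, taken out, LIN28B no longer passed (adjusted p from 0.0675 to 0.185). Without library 3 the log2 difference was -1.50 (adjusted p = 0.0075 in the fit of protein-coding genes). A transcript level does not show the edit itself. Each value is deposited with a lower and an upper bound, from which 4808210 to 8368315 fragment equivalents per library were estimated (the independent fragments that would give such bounds). LIN28B KO library 3 stood apart: coding genes with control means of 20 to 100 FPKM had a median log2 ratio of -0.51 to the control mean there and -0.07 in libraries 1 and 2, and 30.4% of 401 olfactory receptor genes had a value above 0 against 10.2% to 14.5% elsewhere. Its part in the results below was not tested beyond fits without it. All 9 plasma cell markers (CD38, SDC1, TNFRSF17, IRF4, PRDM1, XBP1, MZB1, SLAMF7, POU2AF1) were at 41.9 FPKM or more in every library. Their summed level was 3199 to 3308 FPKM in the controls and 2169 to 3212 FPKM in LIN28B KO cells, lowest in library 3. In such bulk RNA fewer cells of a type and less RNA per cell cannot be told apart. The 6 T and NK cell markers summed to 1.37 to 1.60 and 2.11 to 2.69 FPKM, with CD3D and NKG7 at 0 throughout, and the 6 myeloid markers to 1.04 to 1.40 and 2.58 to 3.61 FPKM, with FCGR3A at 0. The 5 stromal markers summed to 2.85 to 5.45 FPKM in the controls and to 3.42, 3.67 and 11.5 FPKM in LIN28B KO libraries 1 to 3, and the 4 erythroid markers stayed under 1 FPKM. The highest single value was 1.67 FPKM among the T and NK cell, 2.02 among the myeloid and 5.68 among the stromal markers. Of the stromal markers 1 was at 1 FPKM or more in every library.

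No gene of the 10 passed the test between control and LIN28B KO cells. All 10 passed the filter on low values (at least 1 FPKM in at least 3 libraries), and 0 of 10 had an adjusted p under 0.05 in either direction, with values from 0.417 to 0.853 (limma on log2(FPKM + 0.5), Benjamini-Hochberg over 15803 genes). The background was low as well, with 0.0949% of tested genes called (0.0633% higher and 0.0316% lower in LIN28B KO cells). At an unadjusted p under 0.05 the count was still 0 of 10, against 13.7% of all tested genes. The 10 fitted log2 differences ran from -0.33 for TRAF3 to 0.53 for BIRC3, with 6 above 0 and 4 below and a median of 0.07. The median over all tested genes was -0.13, a shift that became 0.00 after cyclic loess scaling, which evens out differences between libraries that vary with expression level. The loess fit also called 0 of 10, where 0.702% of all genes were called, and the median of the 10 was 0.12. Its unadjusted p was under 0.05 for 1 of 10 (RELB), against 18.1% of all genes. A second fit left out LIN28B KO library 3 and used protein-coding genes only (the 5-library fit). It called 4.09% of 11308 genes and 0 of the 10, and the unadjusted p was under 0.05 for RELB and TNFAIP3, 2 of 10 against 22.8%. With cyclic loess on these 5 libraries the counts were 0 of 10 against 2.25% (1.08% higher, 1.17% lower) and, unadjusted, 2 of 10 against 20.9%. Without library 3 but with all 15336 tested genes they were 0 of 10 against 0.417% (0.15% higher, 0.267% lower) and 2 of 10 against 19.8%.

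**Figure D1:**
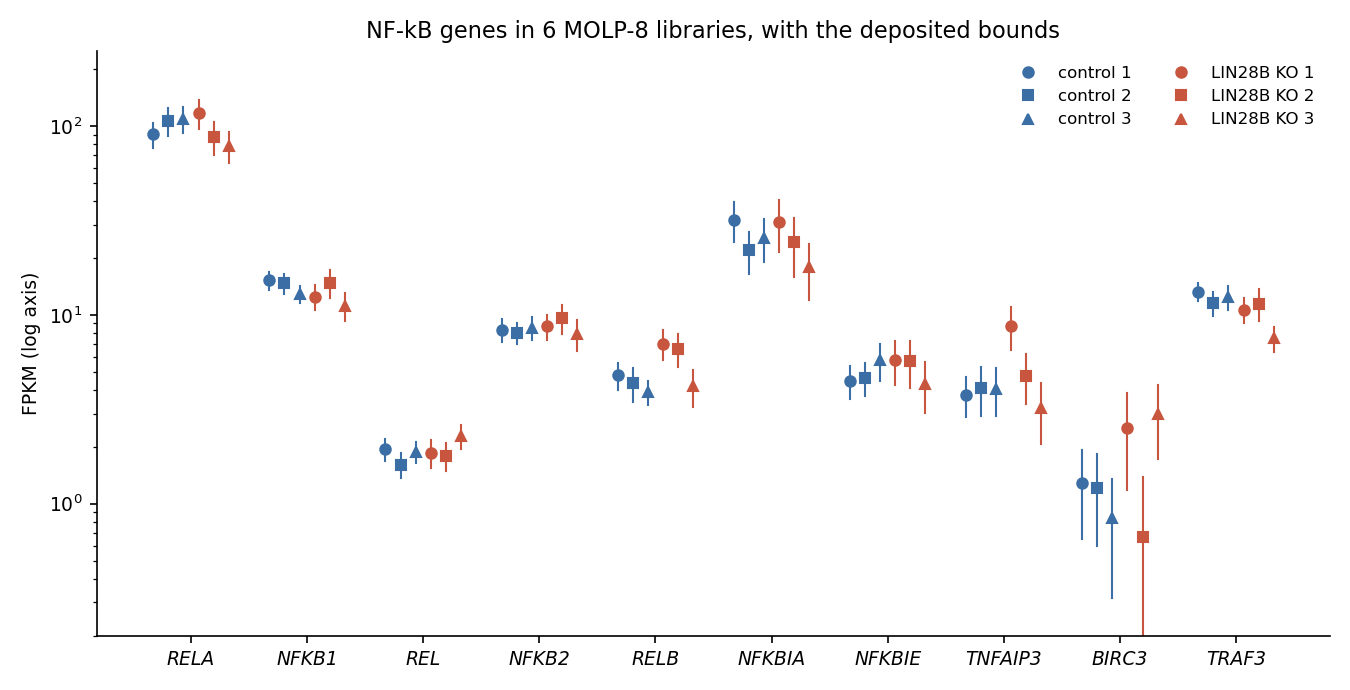
FPKM of the 10 NF-kB genes (log axis) in each of 3 control (blue) and 3 LIN28B KO (red) libraries, with the deposited lower and upper bounds as bars. RELA lies highest and BIRC3 lowest among the controls, and the groups overlap for every gene except TRAF3.

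The subunits differed far more from each other than between the groups (whole-gene coordinates here and below are those of the deposited tables, GRCh37, counted from 1). RELA (ENSG00000173039, chr11:65421067-65430565), the main activating subunit of the canonical arm, measured 90.3, 106 and 108 FPKM in the 3 control libraries, against 117, 87.7 and 78.5 FPKM in LIN28B KO libraries 1 to 3. The highest and the lowest library both belonged to LIN28B KO cells, and the groups overlapped. The log2 difference was -0.12 (SE 0.18, 95% interval -0.54 to 0.30), which became 0.11 after cyclic loess and 0.00 in the 5-library fit. Without LIN28B KO library 1 it was -0.29. NFKB1 (ENSG00000109320, chr4:103422486-103538459), the precursor of p50, measured 15.2, 14.7 and 12.9 FPKM in the 3 control libraries, against 12.5, 14.7 and 11.1 FPKM in LIN28B KO cells. Its groups overlapped, with a log2 difference of -0.16 (SE 0.15, 95% interval -0.51 to 0.20), and -0.01 after cyclic loess. It was -0.26 without LIN28B KO library 2 and -0.07 without library 3. REL (ENSG00000162924, chr2:61108656-61158745), the lymphoid subunit c-Rel and one of the genes with let-7 seed matches, was low at 1.95, 1.61 and 1.88 FPKM in the controls. In LIN28B KO cells REL was at 1.85, 1.80 and 2.28 FPKM, and its highest value lay in library 3. The log2 difference was 0.10 (SE 0.20, 95% interval -0.36 to 0.56), and 0.01 without library 3.

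Of the noncanonical subunits, RELB had the lowest p of the 10 genes after cyclic loess and in the 5-library fit, without passing the threshold. RELB (ENSG00000104856, chr19:45504688-45541452), the activating partner of p52, measured 4.79, 4.35 and 3.90 FPKM in the 3 control libraries, against 7.02, 6.61 and 4.19 FPKM in LIN28B KO libraries 1 to 3. Libraries 1 and 2 lay above every control, while library 3 lay within the control range. With all 6 libraries the log2 difference was 0.38 (SE 0.22, 95% interval -0.12 to 0.89, adjusted p = 0.429). After cyclic loess, which raised library 3 to a log2 ratio of 0.19 above the control mean against at most 0.13 in a control, it was 0.45 (SE 0.16, adjusted p = 0.221). In the 5-library fit it was 0.60 (SE 0.13, 95% interval 0.29 to 0.90), a 1.51-fold higher level, with an adjusted p of 0.0551 in limma that still missed the threshold, and 0.0693 with cyclic loess on the same 5 libraries. When all genes were tested on these libraries the adjusted p was 0.101, and 0.122 with cyclic loess. NFKB2 (ENSG00000077150, chr10:104153867-104162281), the p100 precursor of p52, measured 8.30, 7.99 and 8.50 FPKM in the 3 control libraries, against 8.69, 9.61 and 7.91 FPKM in LIN28B KO cells. Its log2 difference was 0.07 (SE 0.13, 95% interval -0.24 to 0.39) and 0.19 (SE 0.10) after cyclic loess, where all 3 LIN28B KO libraries lay above the controls. It was 0.01 without LIN28B KO library 2 and 0.14 without library 3.

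The makeup of the subunit mRNA was computed within each library, so that a single scale factor per library does not enter. Differences between libraries that vary with expression level are not removed, and the shares were not computed after cyclic loess. RELA made up 74.9%, 78.8% and 79.9% of the summed FPKM of the 5 subunits in the 3 control libraries, against 79.5%, 72.8% and 75.5% in LIN28B KO cells. The noncanonical pair, NFKB2 with RELB, made up 10.9%, 9.13% and 9.15% in the 3 control libraries, against 10.7%, 13.5% and 11.6% in LIN28B KO cells. The means were 9.72% ± 0.99 (SD, n = 3) and 11.9% ± 1.40 (SD, n = 3), and control library 1 lay above LIN28B KO library 1. The difference had p = 0.2 (exact permutation over libraries, two-sided), where 3 against 3 libraries cannot go below 0.1. It was 2.22 percentage points, 1.46 without LIN28B KO library 2, and 4.96 with each gene scaled to its mean.

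**Figure D2:**
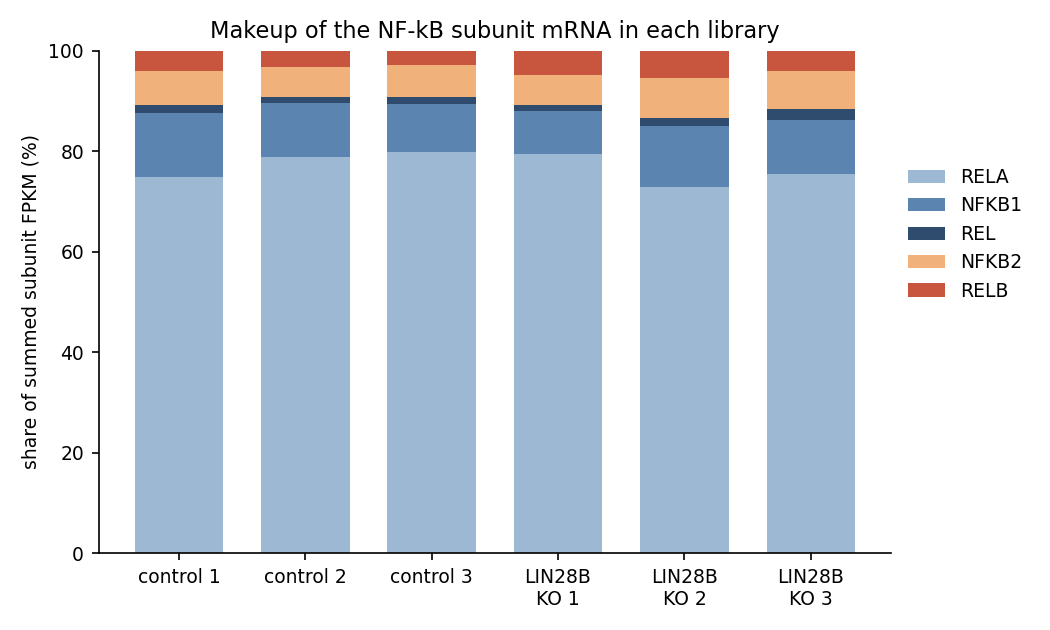
Share of each subunit in the summed subunit FPKM (%), stacked, for each of the 6 libraries. RELA takes 72.8% to 79.9% in every library, and NFKB2 with RELB takes 9.13% to 13.5%.

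The inhibitors overlapped between the groups. NFKBIA (ENSG00000100906, chr14:35870717-35873955), which encodes IkBα, measured 31.8, 22.0 and 25.6 FPKM in the 3 control libraries, against 31.2, 24.2 and 17.9 FPKM in LIN28B KO cells. Control library 1 and LIN28B KO library 1 were both high, and the deposited bounds of all 6 libraries were wide, for example 12.0 to 23.7 FPKM around the lowest value. The log2 difference was -0.13 (SE 0.23, 95% interval -0.67 to 0.41) with all 6 libraries, 0.05 after cyclic loess and -0.32 without LIN28B KO library 1. NFKBIE (ENSG00000146232, chr6:44225903-44233500), which encodes IkBε, measured 4.48, 4.65 and 5.73 FPKM in the 3 control libraries, against 5.74, 5.69 and 4.31 FPKM in LIN28B KO cells. The lowest of the 6 values was that of LIN28B KO library 3, and the log2 difference was 0.07 (SE 0.18, 95% interval -0.34 to 0.49). It was 0.20 without library 3 and 0.01 without LIN28B KO library 1, LIN28B KO library 2 or control library 1. The ratio of both inhibitors to the summed subunits was 0.243 ± 0.0529 (SD, n = 3) in the controls and 0.238 ± 0.0214 (SD, n = 3) in LIN28B KO cells (exact permutation test, two-sided, p = 1).

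TNFAIP3 and BIRC3 varied most between the LIN28B KO libraries, relative to their means. TNFAIP3 (ENSG00000118503, chr6:138188351-138204449), which encodes the ubiquitin-editing inhibitor A20 and also held a let-7 seed match, was at 3.77, 4.10 and 4.05 FPKM in the controls. In LIN28B KO libraries 1 to 3 it was at 8.72, 4.77 and 3.21 FPKM, so that libraries 1 and 2 lay above all controls and library 3 below them. The bounds of library 1, 6.49 to 11.0 FPKM, did not meet those of any control, which reached at most 5.27 FPKM. Its log2 difference was 0.34 (SE 0.32, 95% interval -0.40 to 1.08) with all 6 libraries, 0.64 (SE 0.23, adjusted p = 0.165) in the 5-library fit, and -0.02 without LIN28B KO library 1. BIRC3 (ENSG00000023445, chr11:102188215-102210134), the cIAP2 ubiquitin ligase, was the lowest of the 10 with 1.29, 1.21 and 0.835 FPKM in the 3 control libraries, against 2.51, 0.668 and 2.99 FPKM in LIN28B KO cells. These values rested on 3.50 to 22.3 fragment equivalents per library, and the bounds in LIN28B KO library 2 ran from 0 to 1.38 FPKM. The log2 difference of 0.53 had an SE of 0.43 and a 95% interval of -0.48 to 1.53. It was 1.02 without LIN28B KO library 2, 0.34 without library 1 and 0.23 without library 3. The bounds of library 2 did not meet those of library 3, 1.72 to 4.26 FPKM, so that these libraries differed by more than their deposited bounds.

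TRAF3 (ENSG00000131323, chr14:103243813-103377837), the adaptor that holds NIK down and is often lost in myeloma, was expressed in every library. It measured 13.3, 11.6 and 12.4 FPKM in the 3 control libraries, against 10.7, 11.4 and 7.50 FPKM in LIN28B KO cells. All LIN28B KO values lay below all controls, but the gap between the groups was small, and library 3 lay farthest down. It was 1 of 10 genes with all LIN28B KO values below all controls, against 20.1% of all tested genes. In the other direction the count was 0 of 10 against 7.61% of all genes. The log2 difference was -0.33 (SE 0.18, 95% interval -0.76 to 0.09, adjusted p = 0.417), and -0.16 (SE 0.10) in the 5-library fit. After cyclic loess the TRAF3 groups overlapped, and NFKB2 and RELB were the 2 genes with all LIN28B KO libraries above all controls, against 13.7% of all genes; 0 of 10 lay below, against 13.3%.

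**Figure D3:**
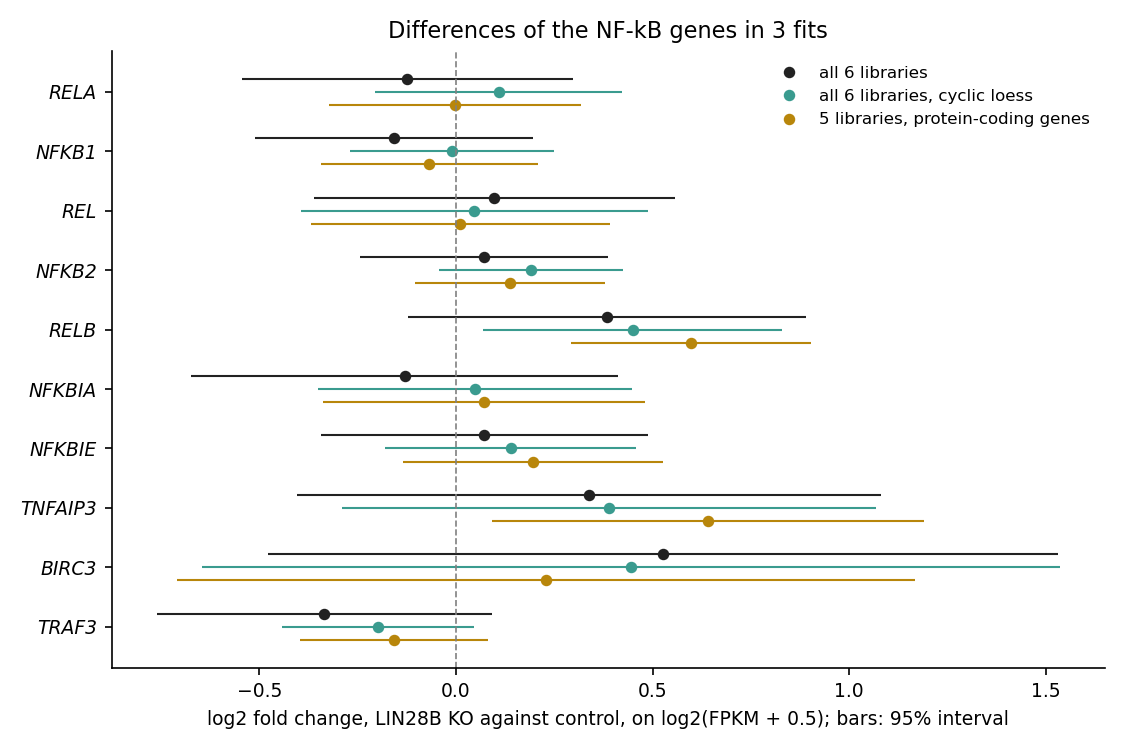
Log2 difference between LIN28B KO and control (points) with its 95% interval (bars) for the 10 NF-kB genes in 3 fits. With all 6 libraries every interval includes 0; after cyclic loess that of RELB lies above 0, and in the 5-library fit those of RELB and TNFAIP3 do, although neither passed after adjustment.

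**Figure D4:**
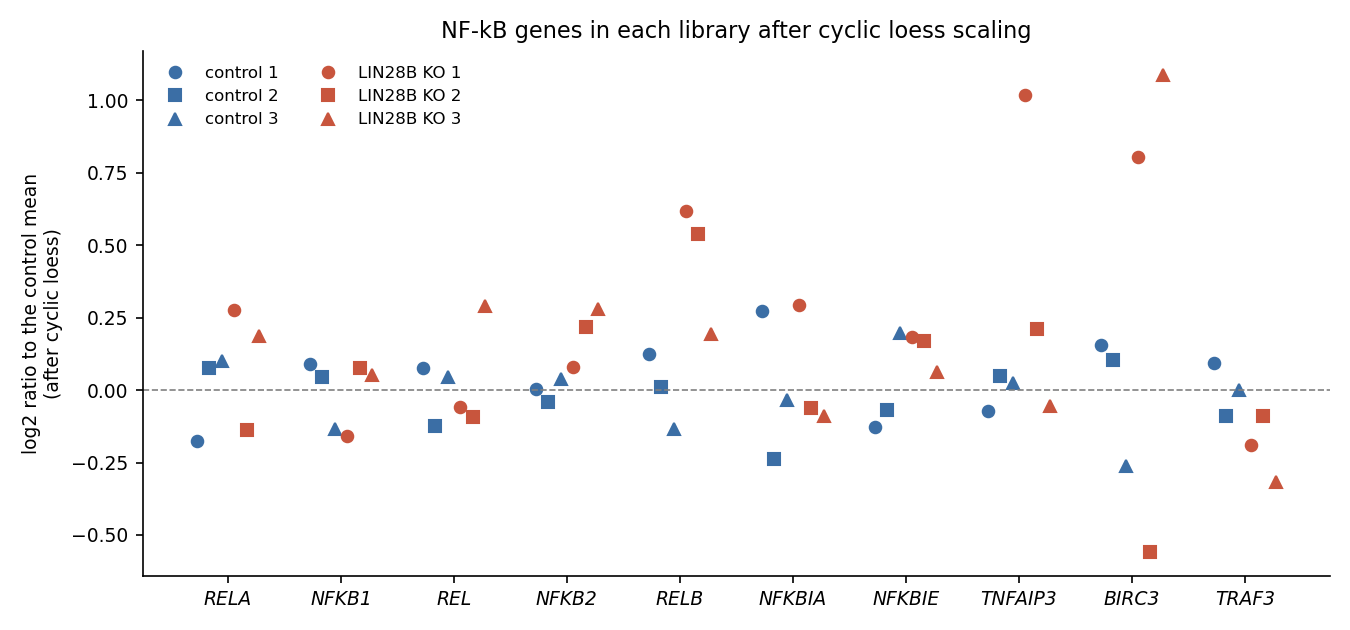
Log2 ratio of each library to the control mean after cyclic loess scaling, for 3 control (blue) and 3 LIN28B KO (red) libraries. The LIN28B KO libraries lie above all controls for NFKB2 and RELB, and for TNFAIP3 and BIRC3 they spread from -0.06 to 1.02 and from -0.56 to 1.09.

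FPKM is scaled to transcript length, so the levels of the genes can be ranked. In the controls the order of means was RELA at 102 FPKM, NFKBIA at 26.4, NFKB1 at 14.3, TRAF3 at 12.4, NFKB2 at 8.26, NFKBIE at 4.95, RELB at 4.35, TNFAIP3 at 3.97, REL at 1.81 and BIRC3 at 1.11. The control ranges of neighbours overlapped for NFKB1 with TRAF3, NFKBIE with RELB and RELB with TNFAIP3. Within each library NFKB1 lay above TRAF3, while the order of NFKBIE with RELB and of RELB with TNFAIP3 changed between control libraries. These orders were not tested. In LIN28B KO cells the order of means differed: RELB, at 5.94 ± 1.53 FPKM (SD, n = 3), and TNFAIP3, at 5.57 ± 2.84, stood above NFKBIE, at 5.25 ± 0.81. BIRC3, at 2.06 ± 1.23, stood above REL, at 1.98 ± 0.26. The LIN28B KO ranges overlapped for each of these pairs.

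The rest of the pathway was read from 5 lists with 81 genes in all, of which 58 passed the filter. With all 6 libraries 0 of the 58 passed the limma test, and the median log2 difference was -0.10 against -0.13 for all genes. An unadjusted p under 0.05 was found for 6 of the 58, against 13.7% of all tested genes. Of these 6, 3 were higher and 3 lower in LIN28B KO cells, against 783 higher and 1380 lower of all 15803 genes. LTBR, among the 3 higher, passed the filter only through its LIN28B KO values. Cyclic loess gave 2 genes that rose (0.361% of all genes did) and 1 that fell (0.342%). In the 5-library fit 1 of 53 tested rose and 1 fell, against 1.08% and 3.02% of all genes. The genes that passed in at least 1 of these fits were the receptor TNFRSF17, the chemokine CCL3 and the ligand LTB.

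Of the other pathway genes, lymphotoxin beta fell in some of the fits, and its receptor passed in none. LTB (ENSG00000227507, chr6:31548302-31550299), lymphotoxin beta, which forms the ligand that drives the noncanonical arm and is also an NF-kB target, measured 3.16, 3.94 and 3.89 FPKM in the 3 control libraries, against 1.26, 1.12 and 0.697 FPKM in LIN28B KO cells. The groups were far apart, and the log2 difference of -1.46 (SE 0.23) had an adjusted p of 0.159 with all 6 libraries. The LTB values in LIN28B KO libraries 1 to 3 rested on only 21.4, 13.3 and 10.8 fragment equivalents. LTB fell by 1.51 (SE 0.19, limma adjusted p = 0.0389) after cyclic loess and by 1.30 (SE 0.16, adjusted p = 0.0248) in the 5-library fit, and had an adjusted p of 0.0605 without library 3 when all genes were tested. LTBR (ENSG00000111321, chr12:6484211-6500733), its receptor, measured 0.447, 0.871 and 0.734 FPKM in the 3 control libraries, against 3.36, 2.09 and 2.36 FPKM in LIN28B KO cells. LTBR passed the filter only through its LIN28B KO values, since all 3 controls were under 1 FPKM, so a high difference and separate groups follow in part from the filter and are given as a description. The log2 difference was 1.39 (SE 0.26), with an adjusted p of 0.221 and of 0.0808 after cyclic loess. LTBR rested on 3.07 to 27.4 fragment equivalents per library and did not pass the filter without library 3.

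Of the 19 receptors and adaptors on the list, LTBR included, 15 were tested and 0 passed with all 6 libraries. TNFRSF1B, the second TNF receptor, measured 10.1, 13.0 and 9.49 FPKM in the 3 control libraries, against 6.60, 6.64 and 4.02 FPKM in LIN28B KO cells, with separate groups and a log2 difference of -0.88 (SE 0.23, adjusted p = 0.265). In the 5-library fit TNFRSF1B was at -0.66 (limma adjusted p = 0.0596, and 0.115 when all genes were tested). TNFRSF1A, the first TNF receptor, had -0.29 (SE 0.14) and MALT1, the paracaspase that links antigen receptors to IKK, -0.29 (SE 0.14), both also with separate groups. Of the 15 tested, 3 had all LIN28B KO values below all controls, against 20.1% of all genes. After cyclic loess TNFRSF1A was at -0.16 and MALT1 at -0.20. TNFRSF17, the BCMA receptor of plasma cells, was picked after its values had been seen. It measured 118, 121 and 132 FPKM in the 3 control libraries, against 160.1, 168 and 126 FPKM in LIN28B KO cells, with library 3 inside the control range. It rose by 0.53 (SE 0.07, limma adjusted p = 0.0390) after cyclic loess and by 0.41 (SE 0.07, adjusted p = 0.0329) in the 5-library fit, whose gene set was chosen after the data had been seen. It had 0.28 (SE 0.15, adjusted p = 0.420) with all 6 libraries, and without library 3 it did not pass when all genes were tested (adjusted p = 0.0691, and 0.0678 with cyclic loess). TNFRSF13B, TNFRSF13C and CD40 were among those under the filter.

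The kinases and further regulators gave no calls. Of 11 kinases 10 were tested and 0 passed in any of these fits, with log2 differences from -0.47 to 0.18 with all 6 libraries. MAP3K14, the NIK kinase of the noncanonical arm, measured 5.07, 4.98 and 5.22 FPKM in the 3 control libraries, against 5.08, 5.01 and 3.32 FPKM in LIN28B KO cells, so that library 3 alone lay below. The kinases with the smallest p were IKBKG, the IKK regulatory subunit, at -0.47 (SE 0.33), which shares sequence with a pseudogene and is uncertain and was at -0.13 without LIN28B KO library 3, TAB2 at 0.17 (SE 0.12), MAP3K7 at -0.14 (SE 0.12) and IKBKB at -0.14 (SE 0.13). The last 2 differences became 0.02 and 0.04 after cyclic loess. Of 20 further regulators 18 were tested, from -0.40 to 0.12, and 0 passed. Those with the smallest p were the A20-binding proteins TNIP2 at -0.40 (SE 0.23) and TNIP1 at -0.20 (SE 0.15), the linear ubiquitin ligase RNF31 at -0.25 (SE 0.17) and the inhibitor NFKBIB at -0.27 (SE 0.21). Without LIN28B KO library 3 these were at -0.21 (TNIP2), -0.07 (TNIP1), -0.08 (RNF31) and -0.06 (NFKBIB), and after cyclic loess at -0.31, 0.01, -0.04 and -0.11.

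**Figure D5:**
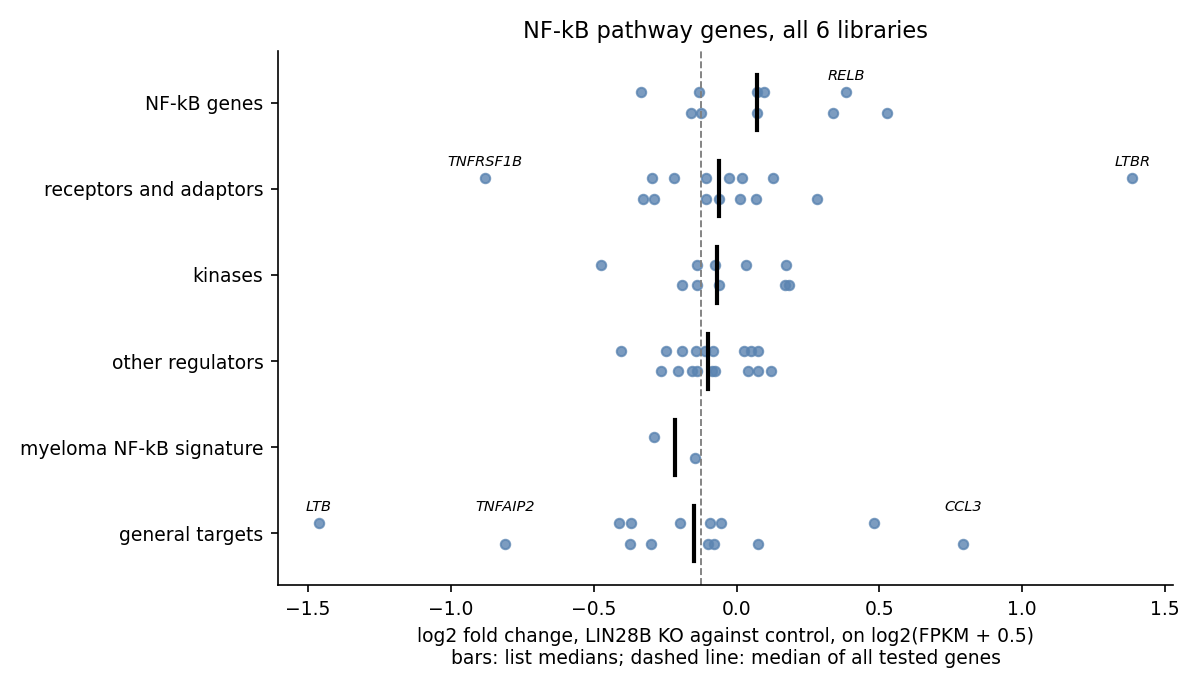
Log2 difference between LIN28B KO and control for each tested gene of the NF-kB genes and the 5 pathway lists, all 6 libraries, with the list medians as bars and the median of all tested genes (-0.13) as a dashed line. LTB lies at -1.46; LTBR lies at 1.39 and passed the filter only through its LIN28B KO values. The medians run from -0.22 to 0.07.

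Of 27 general target genes 14 were tested and 0 passed with all 6 libraries, and 13, among them IL6, IL8, TNF, LTA, CXCL10 and BCL2A1, were under the filter. CCL3, an inflammatory chemokine, measured 36.2, 33.1 and 30.3 FPKM in the 3 control libraries, against 73.0, 67.4 and 39.3 FPKM in LIN28B KO cells. All LIN28B KO libraries lay above the controls, library 3 by the least, and the log2 difference of 0.79 (SE 0.24) had an adjusted p of 0.298. CCL3 rose by 1.00 (SE 0.13, limma adjusted p = 0.0433) after cyclic loess and by 1.07 (SE 0.09, adjusted p = 0.0302) without library 3 when all genes were tested. It has near-identical copies, so its level is uncertain, and with CCL5 and IKBKG it was not matched by identifier among the protein-coding genes. The let-7 seed match was also searched in the 3′ UTRs of CCL3, LTB, LTBR and TNFRSF17. Only CCL3 held it, at base 95 of 416, against 2.79% of UTRs within 1.25 times that length. An effect of let-7 on CCL3 was not tested. TNFAIP2, a TNF-induced gene, measured 36.6, 32.8 and 31.3 FPKM in the 3 control libraries, against 24.0, 15.5 and 18.0 FPKM in LIN28B KO cells, with a log2 difference of -0.81 (SE 0.18, adjusted p = 0.239). In the 5-library fit TNFAIP2 was at -0.78 (limma adjusted p = 0.0646, and 0.128 when all genes were tested). The chemokine CCL5 had a log2 difference of 0.48 (SE 0.18, adjusted p = 0.347), from 3.31 ± 0.60 to 4.79 ± 0.51 FPKM (SD, n = 3).

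The published myeloma NF-kB signature was covered in part. Beside members of the 10 genes the list held IL2RG, CD74, PLEK, MALT1 and WNT10A, of which 2 were tested. IL2RG, the common gamma chain, measured 1.45, 2.61 and 1.32 FPKM in the 3 control libraries, against 2.16, 1.29 and 1.22 FPKM in LIN28B KO cells, with a log2 difference of -0.14 (SE 0.30). CD74, the invariant chain and abundant in B cells, was at 0.389 to 0.985 FPKM over all 6 libraries and under the filter.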

How the data were processed

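RNA sequencing of 6 MOLP-8 libraries was used, grouped by the condition label and numbered as in the titles. The authors' deposited tables give FPKM with bounds on either side, per the file headers. The submitters' processing notes name cutadapt, TopHat2, HTSeq and GRCh37, with no roles or versions; annotation and strand: not given in the sources used here. Rows of 108 genes listed more than once were summed, and 25 genes with a failed estimate were left out of 57886. Read numbers were not given: fragment equivalents take the upper bound as 2 SDs away and square the ratio of FPKM to its SD. They do not cover variation between libraries. Which errors the bounds include is not given, so fragment equivalents are not a direct count of fragments.

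Log2(FPKM + 0.5) was fitted by limma 3.58.1 under R 4.3.3, its variance trend on, using all 6 libraries for 15803 genes with at least 1 FPKM in at least 3 libraries, with Benjamini-Hochberg adjustment at 0.05. Fold changes on this scale understate those of low genes. Single values were compared by exact permutation over libraries. The scripts were tested on simulated data. Libraries shared at most 0.304% identical values. Protein-coding genes were those of GENCODE 29 under the same identifier.

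The members and lists were chosen with earlier results of these data known. Named by rule are the 10 members, LIN28B, and up to 4 tested genes per list by p, plus any called with all 6 libraries or without LIN28B KO library 3. Values of MAP3K14, CD74 and TNFRSF17 are given outside this rule.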

Additional observations from a re-analysis of the deposited data

How the results depend on the processing

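Of the 10 NF-kB genes 0 passed under each of 17 alternative settings of the fit. The fits restricted to protein-coding genes were chosen after seeing the data. The lowest adjusted p was 0.0551 for RELB in the 5-library fit; over the settings its log2 difference ran from 0.26 to 0.60. The count over all genes was 15 (10 higher, 5 lower). It was 6 (5 and 1) without a filter, 28 (15 and 13) with quantile normalization and 111 (57 and 54) with cyclic loess. Without LIN28B KO library 3 it was 64 (23 and 41), and 72 (36 and 36) with cyclic loess. On protein-coding genes without that library it was 463 (122 and 341), and 254 (122 and 132) with cyclic loess. Leaving out a library, alone or with these other changes, gave 4 to 463 in all, 1 to 122 higher and 0 to 341 lower. For the other pathway genes it was 3 with cyclic loess (2 and 1), and 0 to 2 (0 to 1 each way) with a library left out. No pairing by replicate number was seen, though 3 libraries per group cannot exclude it. Deviations of same-numbered libraries correlated at -0.02, 0.04 and -0.03, and those of other-numbered libraries at -0.08 to 0.09. With the replicate block 11 genes were higher and 2 lower, and 0 NF-kB genes were called. The noncanonical shares of subunit mRNA differed by 2.22 percentage points (1.46 to 2.83 with a library left out, 4.96 with each gene scaled to its mean), with p = 0.5 in the paired exact test. With 3 pairs the smallest p that the paired test can give is larger than that of the unpaired test.

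LIN28B lost its call without a filter (log2 -1.66, adjusted p = 0.142) and with the replicate block (-1.66, adjusted p = 0.0604), and ran from -1.75 to -1.50 with a library left out (adjusted p up to 0.185; control libraries 1, 2 and 3 and LIN28B KO libraries 1 and 2 each ended the call). Signs also turned: with quantile normalization REL was -0.034 and RELA 0.061; with cyclic loess RELA was 0.11, NFKBIA 0.048, MAP3K7 0.024, IKBKB 0.044 and TNIP1 0.0078. With a library left out, alone or with cyclic loess, REL ran from -0.078 to 0.15 (-0.040 in the 5-library fit with cyclic loess), RELA from -0.29 to 0.074 (0.071 with cyclic loess on all genes), NFKBIA from -0.32 to 0.12 (0.072 without LIN28B KO library 3 in both gene sets), TNFAIP3 from -0.016 to 0.64, TNIP1 from -0.29 to 0.0023, IL2RG from -0.34 to 0.10 and the inhibitor ratio difference from -0.0281 to 0.0238. The number of NF-kB genes with separate groups was 0 higher and 1 lower. It was 2 and 0 with cyclic loess, 1 and 1 with quantile normalization, and 0 to 3 and 1 to 2 with a library left out. Without LIN28B KO library 3 the 3 higher were NFKB2, RELB and TNFAIP3. For quantile normalization and for libraries left out the share over all genes was not computed, and smaller groups separate more easily. Those counts are a description only. The cause was not tested in any of these cases. BIRC3, LTBR and LTB rest on few fragment equivalents in some libraries, and 3 libraries per group limit all of the tests.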
